A study of Mus musculus with 2 samples.

Results

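The RGS family and Gnai2 are described here in CH12.LX, a female mouse B cell lymphoma line kept as an immortalized culture on the B10.H-2aH-4bp/Wts background. The 10 members, 9 RGS genes and Gnai2, were chosen by symbol with their levels in these libraries already known, and all 10 were found by Ensembl identifier in both gene tables, which hold 43346 Ensembl genes. Levels are in TPM (transcripts scaled to the same total in every library), which are corrected for transcript length and so can be compared between genes. Polyadenylated RNA was sequenced from 2 biosamples, replicate 1 with 22996547 and replicate 2 with 25715408 expected counts (read counts that are estimated, since reads matching several genes are divided). Both libraries belong to 1 group, for which the labels name no treatment, so each level is a description of this tumour line with no test and not of normal B cells. Whether the biosamples were separate cultures is not stated beyond the biological replicate numbers, so the spread between them may be partly technical.

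RGS proteins shorten G protein signals: they bind a GTP-loaded Gα subunit through the RGS domain and speed its hydrolysis of GTP, which lets Gα return to Gβγ. Gnai2 encodes Gαi2, the Gα subunit that chemokine receptors of lymphocytes mainly use, and Gαi and Gαq are the usual substrates of the small R4-type RGS proteins. In B cells, chemokine receptor signalling through Gαi directs movement into and within follicles, and Rgs1 and Rgs13 are known as brakes on it, with Rgs13 typical of germinal centre B cells.

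The B cell label held against its markers. All 6 B cell markers were detected (1 TPM or more in both libraries), with summed levels of 1376 and 1481 TPM in replicates 1 and 2. Of the T cell list 3 of 6 genes passed 1 TPM. These were Cd3d (1.14 and 1.63 TPM), Cd3g (1.69 and 2.11 TPM) and Cd28 (1.70 and 1.32 TPM). The list summed to 5.59 and 6.66 TPM, and Cd3e stood at 0.04 and 0.08 TPM. The NK cell list had 0 of 4 genes detected and summed to 0.14 and 0.10 TPM, with Ncr1, Gzma and Klrb1c at 0. The myeloid list had 2 of 7 detected at sums of 4.13 and 3.33 TPM, with Cd14, Elane and S100a8 at 0. The 2 detected were Adgre1 (1.64 and 1.34 TPM) and Itgam (1.79 and 1.24 TPM). The stromal and endothelial list had 1 of 5 detected, Cdh5 (1.10 and 1.00 TPM), and summed to 1.40 and 1.27 TPM.

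Rgs13 was the RGS gene with the highest level by a wide margin. It lies on chromosome 1 (mm10 chr1:144138654-144177372, minus strand) and encodes a protein of 158 residues that is little more than an RGS domain. The sequence just before its annotated start is shown beside those of 2 other members because the window of Rgs13 and the first window of Rgs19, the genes with the 2 highest RGS levels, differ in base composition. The RefSeq promoter table (GRCm38.p6) holds windows for 6 of the 10 members (Rgs2, Rgs3, Rgs10, Rgs13, Rgs16 and Rgs19), and Rgs1, Rgs14, Rgs18 and Gnai2 are named only. Each window below covers the 250 bases upstream of the start, 5′ to 3′ on the gene's strand, with every CpG in capitals: for Rgs13 chr1:144177373-144177622 (minus strand), for its neighbour Rgs2 chr1:144004150-144004399 (minus strand) and for Rgs19 chr2:181693978-181694227 (minus strand, the first of its 3 windows).
Rgs13: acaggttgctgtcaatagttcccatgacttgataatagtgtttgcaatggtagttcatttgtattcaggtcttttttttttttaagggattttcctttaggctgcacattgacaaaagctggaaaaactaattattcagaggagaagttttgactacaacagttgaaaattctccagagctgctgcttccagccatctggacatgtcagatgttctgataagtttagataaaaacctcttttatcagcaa
Rgs2: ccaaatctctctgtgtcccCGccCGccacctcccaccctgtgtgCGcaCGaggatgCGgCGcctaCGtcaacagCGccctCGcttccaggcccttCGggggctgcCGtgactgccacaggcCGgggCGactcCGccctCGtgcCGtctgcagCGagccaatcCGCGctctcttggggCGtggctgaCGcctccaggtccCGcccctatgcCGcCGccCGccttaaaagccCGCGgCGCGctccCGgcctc
Rgs19: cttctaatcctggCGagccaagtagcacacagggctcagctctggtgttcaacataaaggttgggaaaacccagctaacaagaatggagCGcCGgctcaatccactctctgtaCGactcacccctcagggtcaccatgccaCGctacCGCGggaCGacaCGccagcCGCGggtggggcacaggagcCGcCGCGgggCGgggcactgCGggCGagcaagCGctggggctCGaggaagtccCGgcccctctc
The Rgs13 window lies before the start of the transcript Rgs13-201, which held 18.7% and 31.6% of the Rgs13 TPM in replicates 1 and 2. The leading transcript, Rgs13-202, starts 97 bases further downstream, and the bases just before that start are not in the window. The Rgs13 window holds 36.0% G and C and 0 CpG, against a median of 52.4% and 6 CpG over the 32851 windows of the table. Of these, 5.81% had a lower G and C content and 7.87% had no CpG. The Rgs2 window holds 72.4% and 30 CpG, and the Rgs19 window 64.8% and 20 CpG. The other Rgs19 windows, not printed, hold 74.8% with 34 CpG and 54.4% with 4 CpG, and the last of these is near the median of the table. The windows of Rgs3, also not printed, hold 48.4% with 3 CpG and 56.8% with 7 CpG. These Rgs3 windows lie before starts at chr4:62559847 and chr4:62619672. The leading transcript Rgs3-204 starts further downstream, at chr4:62674039, and the bases just before that start are in neither window. Those of Rgs10 and Rgs16 hold 76.4% with 27 CpG and 66.4% with 17 CpG. A search on both strands for TATAAA, for the octamer ATGCAAAT and for CACGTG found none in the windows of Rgs13, Rgs2 and Rgs19. Among the other member windows, the 2 of Rgs3 hold TATAAA. Over all windows of the table, 12.4% hold TATAAA, 1.60% hold ATGCAAAT and 6.02% hold CACGTG.

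Rgs13 measured 479 TPM in replicate 1 and 514 TPM in replicate 2, from 11768 and 13977 counts. It took 0.0512% of the counts of replicate 1 (Wilson 95% interval 0.0503 to 0.0521%, counting error only). By its mean it ranked 229 among 21474 protein-coding genes, with 98.9% of them below it. The 3 protein-coding genes nearest to it in level over the 2 libraries, by the root mean square difference of log2 TPM, were Phb2 (0.0093), the histone gene H3f3a (0.027) and Gm21887 (0.041).

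**Figure D1:**
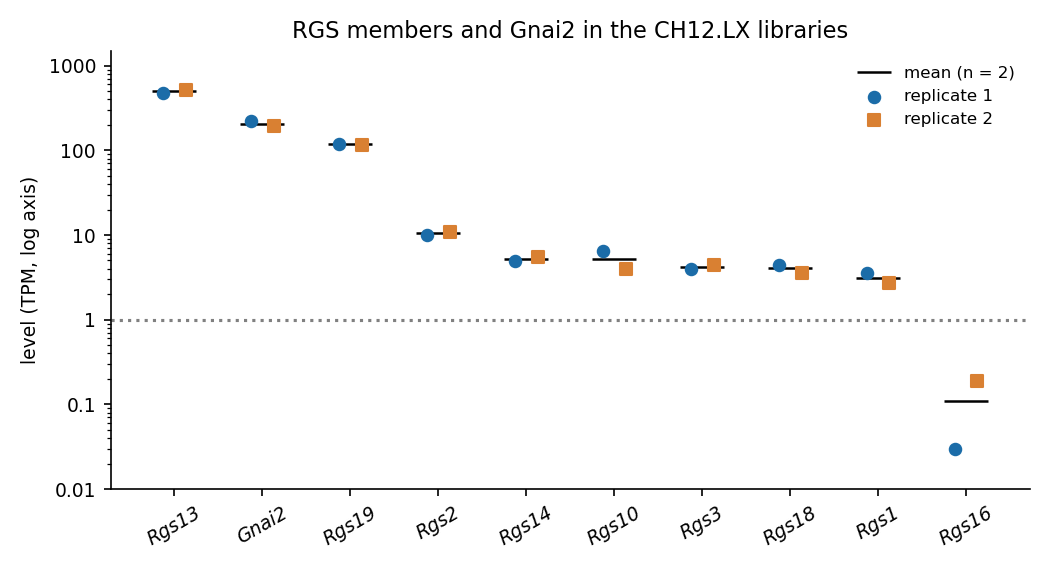
Level of each member in TPM on a log axis, with circles for replicate 1, squares for replicate 2, bars for the mean and a dotted line at 1 TPM. Rgs13, Gnai2 and Rgs19 stand above 100 TPM in both libraries, 6 members lie between 2.70 and 10.8 TPM, and Rgs16 lies below 1 TPM.

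Over the 21 RGS genes listed in the R4, R7, R12 and RZ subfamilies and Rgs22, the summed level was 640 TPM in replicate 1 and 670 TPM in replicate 2. Rgs13 alone held 74.9% and 76.7% of it (75.8 ± 1.27%, SD, n = 2). Rgs19 held 18.7% and 17.5%, and the other RGS genes together held 6.42% and 5.83%. The ratio of Rgs13 to Rgs19 was 4.01 and 4.38 (4.20 ± 0.27, SD, n = 2), so the gap between these genes was far wider than the spread between libraries. Counting reads without the length correction gave Rgs13 a somewhat higher share, 79.2% and 79.7% of the RGS counts. The gap to Rgs19 was also wider in counts than in TPM, with 11768 and 13977 for Rgs13 against 1886 and 2191 for Rgs19.

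In the order of mean levels, Rgs13 was followed by Gnai2, Rgs19, Rgs2, Rgs14, Rgs10, Rgs3, Rgs18, Rgs1 and Rgs16. The library values of neighbours did not overlap from Rgs13 down to Rgs14. The values of Rgs14 and Rgs10, of Rgs10 and Rgs3, and of Rgs3 and Rgs18 overlapped, so these pairs have no order beyond their spread. Both values of Rgs14 lay above those of Rgs3 and Rgs18, while the range of Rgs10 overlapped all 3. Rgs18 and Rgs1 did not overlap, and neither did Rgs1 and Rgs16. By the deposited posterior mean TPM, another estimate of the level, Rgs18 and Rgs1 were nearly level, with means of 3.815 and 3.775 TPM.

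Within the R4 subfamily, whose members are mostly an RGS domain with short ends, Rgs13 was followed by 4 genes at a few TPM. Rgs2, known for its preference for Gαq, measured 10.1 and 10.8 TPM from 203 and 242 counts. Rgs3 measured 3.95 and 4.46 TPM from 150 and 202 counts. These levels lay far under Rgs13, and Rgs13 exceeded Rgs2 by 47.4-fold in both libraries. Rgs18, known from megakaryocytes and platelets, measured 4.48 and 3.58 TPM from 146 and 130 counts. Most other genes of that lineage were at or near 0: Pf4, Ppbp and Gp1bb had 0 counts in both libraries, Gp9 had 0 and 1 count, and Itga2b stood at 1.77 and 2.65 TPM. Rgs1, an activation-induced gene of lymphocytes, measured 3.53 and 2.70 TPM from 65 and 73 counts, which Rgs13 exceeded by 136-fold and 190-fold.

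Rgs16, which lymphocytes raise after activation, was the member under 1 TPM. It measured 0.03 TPM from 1 count in replicate 1 and 0.19 TPM from 8 counts in replicate 2, and the first of these is below the level of 3 counts (0.0797 TPM). Its difference between libraries rests on 9 reads and was not tested.

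The R12 and RZ members covered the rest of the range. Rgs19 (GAIP), an RZ protein with a cysteine string that anchors it to membranes and a known Gαi partner, measured 120 and 117 TPM from 1886 and 2191 counts, which placed it above 94.4% of protein-coding genes. Rgs14, which carries Ras-binding and GoLoco domains beside the RGS domain, measured 4.90 and 5.56 TPM from 181 and 220 counts. Rgs10, a small R12 protein, measured 6.41 and 3.96 TPM from 77 and 59 counts, with the widest relative spread of the members detected (5.19 ± 1.73 TPM, SD, n = 2). Rgs19 was the single RZ gene detected, since Rgs20 had 0.11 and 0.10 TPM and Rgs17 had 0 counts in both libraries.

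Of the 9 RGS members 8 were detected, and of the 12 RGS genes outside the list 1 was. That gene is Rgs12, an R12 protein with PDZ, PTB and GoLoco domains, at 6.20 and 6.13 TPM, which is above 6 of the RGS members by the mean. Rgs9 lay at the threshold with 0.99 and 1.05 TPM. Rgs4, Rgs5 and Rgs17 had 0 counts in both libraries, for which 3 counts would correspond to 0.0897 and 0.0807 TPM for Rgs4, 0.0773 and 0.0695 TPM for Rgs5, and 0.0393 and 0.0354 TPM for Rgs17. The 9 RGS members together held 98.8% of the summed RGS level in each library. By subfamily, R4 held 78.3% and 79.9%, RZ 18.7% and 17.5%, R12 2.74% and 2.34%, and R7, the Gβ5-binding group of neurons and photoreceptors, 0.192% and 0.206%.

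**Figure D2:**
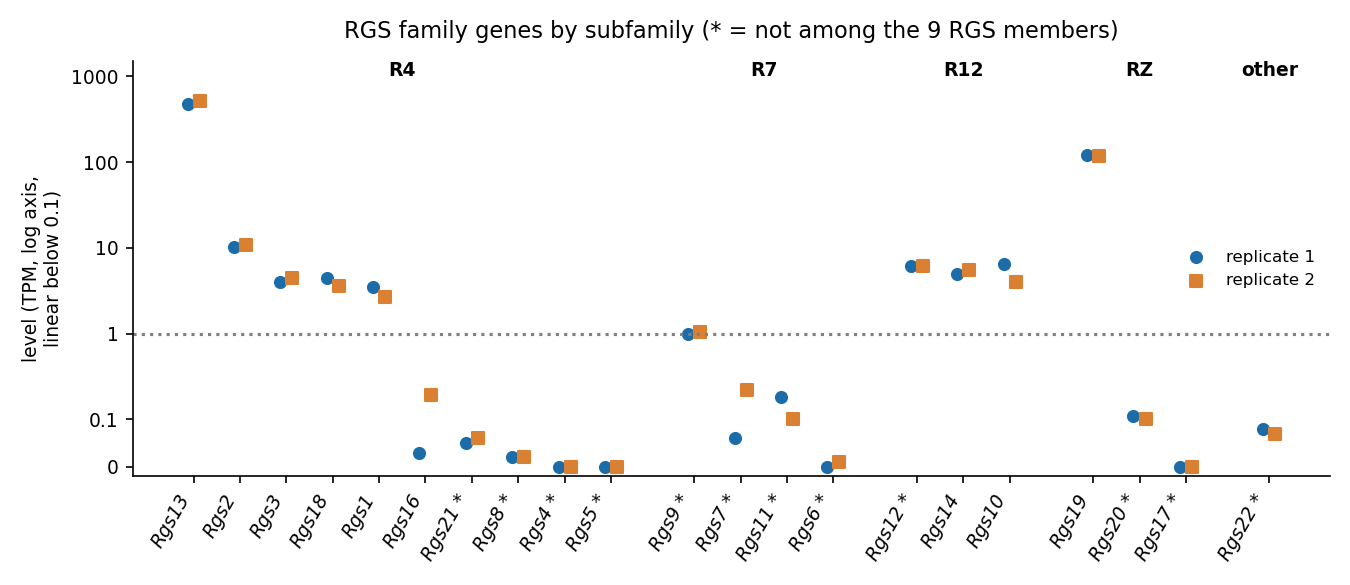
Level of 21 RGS genes in TPM by subfamily, on a log axis that is linear below 0.1, with circles for replicate 1, squares for replicate 2 and a dotted line at 1 TPM. Rgs13 in R4 and Rgs19 in RZ stand apart from the rest, the 3 R12 genes lie between 3.96 and 6.41 TPM, and genes with an asterisk are not among the members.

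Several R4 members are neighbours in the genome, and their levels differed strongly. Rgs2, Rgs13, Rgs1, Rgs21 and Rgs18 lie in that order on 776 kb of chromosome 1, from 143999338 to 144775435, all on the minus strand and with no other protein-coding gene among them. The start of Rgs13 is 173 kb from that of Rgs2 and 71.9 kb from that of Rgs1. The levels along the cluster were 10.1, 479, 3.53, 0.05 and 4.48 TPM in replicate 1, and 10.8, 514, 2.70, 0.06 and 3.58 TPM in replicate 2. The high level was thus found at 1 gene of the cluster and not at those on either side. Of the 3 other annotated genes there, the pseudogene Gm7266 was highest with 1.72 and 2.87 TPM.

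**Figure D3:**
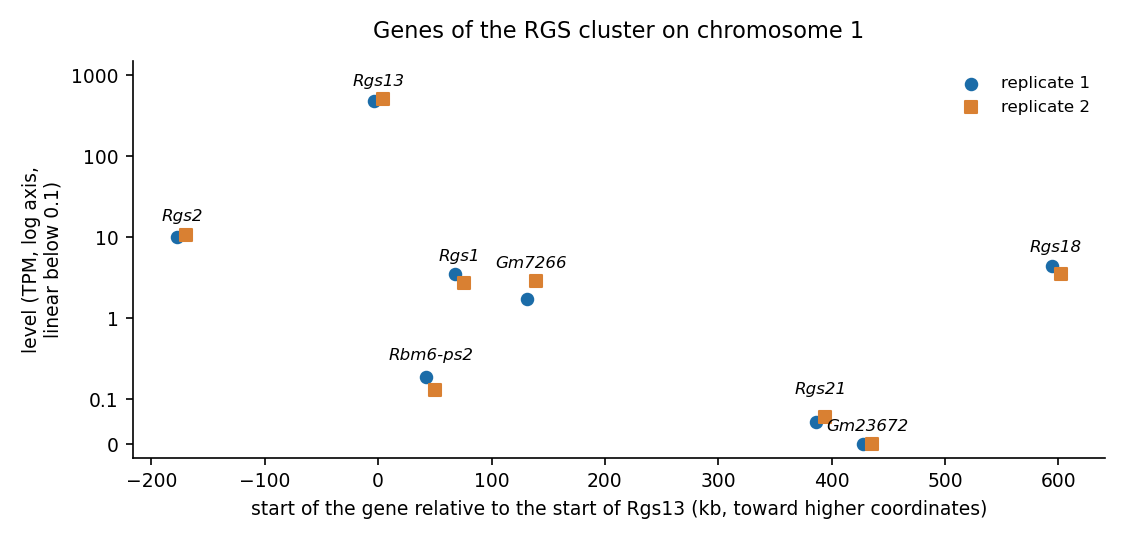
Level in TPM, on a log axis that is linear below 0.1, of every annotated gene of the chromosome 1 cluster against the distance of its start from that of Rgs13 in kb. Circles are replicate 1 and squares replicate 2, drawn slightly apart; Rgs13 stands at 479 and 514 TPM and no other gene of the cluster exceeds 10.8 TPM.

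Gnai2 was the leading Gα gene of the Gi/o class, to which the RGS members mainly direct their activity. It lies at chr9:107614125-107635367 on the minus strand and measured 220 and 193 TPM from 6645 and 7328 counts. It held 71.7% and 70.1% of the summed level of the 8 Gi/o genes (70.9 ± 1.13%, SD, n = 2). Gnai3 followed with 63.8 and 57.9 TPM, and the ratio of Gnai2 to Gnai3 was 3.44 and 3.33. Gnat2, better known from cones, reached 11.4 and 9.71 TPM, and Gnao1, better known from neurons, averaged 8.72 ± 1.80 TPM (SD, n = 2), while Gnai1 had 0 counts in both libraries. The Rgs13 level exceeded the Gnai2 level by 2.18-fold and 2.66-fold, and Gnai2 exceeded Rgs19 by 1.84-fold and 1.65-fold.

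The partners of Gnai2 were present around it. Of 5 Gβ genes 4 were detected, led by Gnb1 at 341 and 291 TPM and Gnb2 at 242 and 241 TPM. Of 12 Gγ genes 7 were detected, led by Gng5 at 364 and 467 TPM, and the summed Gγ level was 627 and 687 TPM. Among the other Gα classes 6 of 8 genes were detected, led by the Gαs gene Gnas at 412 and 363 TPM. Gna13 stood at 25.8 and 23.9 TPM and Gnaq, the class that Rgs2 prefers, at 12.2 and 9.47 TPM.

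Other regulators of the Gα cycle were listed for comparison. Of 6 genes for Gα chaperones and GoLoco proteins 5 were detected, led by the chaperone Ric8a at 39.2 and 41.6 TPM and the GoLoco gene Gpsm3 at 40.9 and 28.6 TPM. All 9 genes for other proteins with an RGS homology domain were detected, led by Arhgef1, an exchange factor of leukocytes regulated by Gα12/13, at 102 and 94.9 TPM. Of 8 receptor kinase and arrestin genes 5 were detected, led by Grk2 at 150 and 128 TPM and Arrb2 at 76.8 and 65.8 TPM. These levels lay below Rgs13 in both libraries. For scale, 48.0% of all protein-coding genes were detected, against 9 of the 10 members.

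Receptors and effectors around the members were also uneven. Of 16 chemoattractant receptor genes 13 were detected. Ccr7 led with 244 and 225 TPM, followed by Cxcr4 with 62.4 and 59.1 TPM and Cxcr5 with 46.5 and 51.6 TPM, which are the receptors that guide B cells to T zones, germinal centre dark zones and follicles. Of the S1pr genes on the list, S1pr3 was highest at 23.43 and 24.45 TPM. S1pr1 and S1pr2 were low, at 4.74 and 5.23 TPM and at 1.67 and 1.62 TPM, and S1pr4 had 0.13 and 0.14 TPM. Of 16 effector genes 6 were detected, led by Pik3r6, a regulatory subunit of the Gβγ-responsive PI3Kγ, at 74.4 and 66.2 TPM, and Adcy7, an adenylyl cyclase of immune cells, was the 1 of the 9 cyclase genes on the list that passed 1 TPM, at 19.7 and 18.9 TPM.

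The members divided their output over transcripts to very different degrees, judged by the percent of a gene's TPM that the deposited tables place on each transcript. All 65 transcripts of the members have the same length in GENCODE M21, from which names and types are taken. The leading transcript was the same in both libraries for all 10 members, and for 8 of them it is annotated as protein-coding. Rgs16 and Rgs18 have 1 transcript each. Which transcript a short single-end read came from is often ambiguous, and the shares are estimates that depend on how such reads were divided.

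Rgs13 has 2 transcripts that encode the same 158 residues and differ mainly in the first exon. Rgs13-202, which starts 97 bases downstream of Rgs13-201, held 81.3% and 68.4% of the gene's TPM in replicates 1 and 2, and Rgs13-201 held 18.7% and 31.6%. In TPM, Rgs13-202 had 390 and 351 and Rgs13-201 had 89.7 and 163, so the 2 transcripts moved in opposite directions. Their counts, not scaled for the greater depth of replicate 2, were 9609 and 9625 for Rgs13-202 and 2159 and 4352 for Rgs13-201. The posterior SD of each of these counts was 221 and 294, small beside the difference in Rgs13-201. With 2 libraries the shift in share was not tested.

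Gnai2-201 held 71.0% and 83.0% of the Gnai2 level and Gnai2-202 held 14.9% and 15.7%, and both encode the same 355 residues. Rgs14-201, for 547 residues, held 88.0% and 71.7%, and the retained-intron form Rgs14-202 averaged 20.1 ± 11.5% (SD, n = 2) and was higher in replicate 2. Rgs10-201, for 181 residues, held 73.0% and 94.6%. The posterior mean isoform values put Rgs10-201 at 57.47% and 68.25% and Rgs14-201 at 71.07% and 64.5%. Rgs19 was the most divided member: Rgs19-201, for 216 residues, held 32.0% and 42.7%, and Rgs19-211, a fragment of 424 bases, held 27.5% and 34.1%. The leading Rgs3 transcript was Rgs3-204, for 568 residues, which begins inside the gene at chr4:62674039 and held 76.3% and 80.7%. The posterior mean isoform values put it at 42.3% and 53.9%. The longer Rgs3-202 (966 residues) and Rgs3-201 (610 residues) had 0 counts in both libraries.

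For Rgs1 and Rgs2 the transcript with the highest share carries an early stop codon and is annotated as a target of nonsense-mediated decay, the pathway that removes such RNAs. The splice site at which Rgs2-201 parts from the protein-coding Rgs2-202 is shown as 30 bases of reference transcript, 5′ to 3′, with the 15 bases shared by both forms in lower case and the 15 bases after the split in capitals (GRCm38, chromosome 1, minus strand, last shared base 144002952).
Rgs2-201: gcaaacttttatcaaGTAAGTTTCGGATCC
Rgs2-202: gcaaacttttatcaaGCCTTCTCCTGAGGA
Rgs2-201 reads on into an intron of 110 bases, and the stop codon TAA begins at the second capital, after 71 residues, where Rgs2-202 encodes 211. Rgs1-204 joins an acceptor that adds 49 bases to exon 2, and its reading frame stops after 46 residues, where Rgs1-208 encodes 209.

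Rgs2-201 held 75.4% and 71.3% of the Rgs2 level and Rgs2-202 held 22.3% and 22.7%. The order turned round in counts, with 110 and 134 on Rgs2-202 against 90.4 and 102 on Rgs2-201, because TPM divides by length and Rgs2-202 (3021 bases) is longer than Rgs2-201 (763 bases). Rgs1-204 held 68.5% and 62.6% of the Rgs1 level, and the retained-intron form Rgs1-203 held 29.3% and 19.4%. The coding Rgs1-208 held 0% and 5.67% and the coding Rgs1-207 had 0 counts in both libraries, so 100% and 85.5% of the Rgs1 counts lay on forms not annotated as coding. These shares rest on 65 and 73 counts, and the posterior mean isoform values put Rgs1-204 at 46.2% and 38.7%. They put the coding Rgs1-207 at 13.4% and 12.9% and the coding Rgs1-208 at 0.74% and 4.96%. The absence of coding forms in the counts thus depends on the estimate used.

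**Figure D4:**
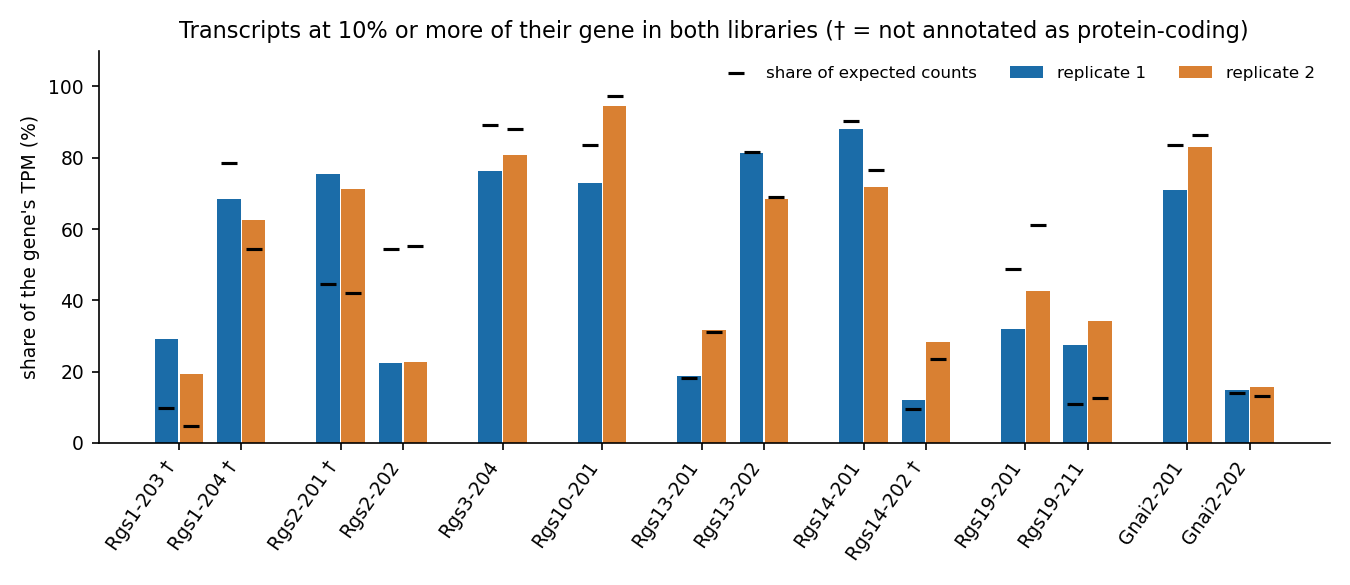
Share of the gene's TPM in percent for each transcript at 10% or more in both libraries, with the left bar of each pair for replicate 1, the right bar for replicate 2 and a dash for its share of expected counts. A dagger marks transcripts not annotated as protein-coding; for Rgs2-202 the dashes at 54.4% and 55.2% stand well above the bars at 22.3% and 22.7%. Rgs16 and Rgs18, with 1 transcript each, are not drawn.

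The libraries were compared with each other by a two-sided exact binomial test of each gene's 2 counts against TMM-scaled library sizes, adjusted by the Benjamini-Hochberg method over 15340 genes with at least 10 counts in sum. It compares 2 libraries and holds counting error only. It called 4693 genes, or 30.6%, so the libraries are not copies of each other: over the genes tested, the chi-square between them was 33.2 times its degrees of freedom. Of the 10 members 9 were tested and 1, Rgs13, was called. Rgs13 was lower in replicate 1, with a log2 ratio of replicate 1 over replicate 2 of -0.11 (adjusted p = 9.0e-09, exact binomial test). Rgs13 was also the member with the most counts.

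The other 8 members tested did not pass the threshold. Gnai2 had a log2 ratio of -0.00416 and Rgs19 of -0.08, and these are the most deeply counted of the 8. Rgs10 had the ratio farthest from 0, 0.52 (adjusted p = 0.109, exact binomial test), followed by Rgs18 at 0.30 and Rgs3 at -0.29. The median absolute log2 ratio was 0.12 over the 9 members tested and 0.17 over all genes tested.

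**Figure D5:**
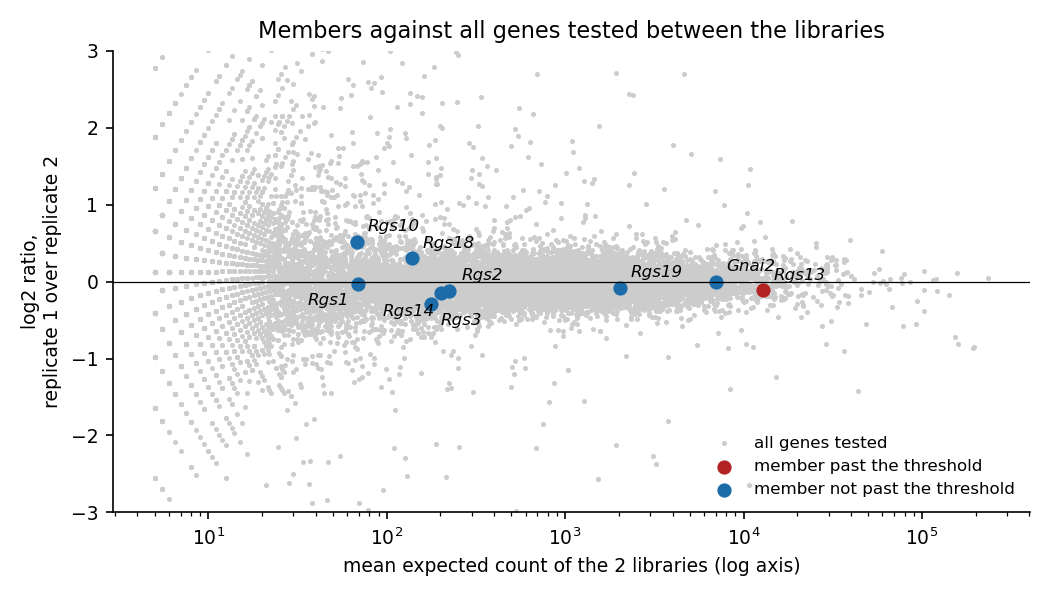
Log2 ratio of replicate 1 over replicate 2 against the mean expected count of the 2 libraries on a log axis, with all genes tested in grey, Rgs13 in red as past the threshold and 8 members in blue as not past it. The members lie between -0.29 and 0.52, and 271 genes lie outside the range drawn, which ends at 3 in each direction.

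For Gnai2, Rgs1 and Rgs19 the TPM and the scaled counts differed in direction between the libraries. Gnai2 was 1.14-fold higher in replicate 1 by TPM although its scaled counts were level, and its effective length, the length that TPM divides by, was 1847 bases in replicate 1 and 2086 in replicate 2. The short Gnai2-208 (197 bases) took 53.3 counts and 9.43% of the Gnai2 TPM in replicate 1 and 0 in replicate 2. Rgs1 was 1.31-fold higher in replicate 1 by TPM with a log2 count ratio of -0.03, at effective lengths of 1123 and 1482 bases. Rgs19 was 1.02-fold higher in replicate 1 by TPM with a log2 count ratio of -0.08, at effective lengths of 962 and 1027 bases. Rgs10 kept its direction and was 1.62-fold higher by TPM with a log2 count ratio of 0.52, at effective lengths of 733 and 817 bases. The part of transcript assignment in these differences was not tested beyond these values.

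Assignment to the gene itself was firm for most members. The deposited posterior SD of the gene count was 0 in both libraries for 8 of the 10 members, and it was 9.84 and 5.32 counts for Rgs3 and 0 and 0.45 for Rgs16. Several members overlap another annotated gene, and the sources used here do not say whether reads were counted by strand. The overlapping genes were low: Gm11209 at Rgs3 had 0.16 and 0 TPM, Gm15503 at Rgs10 had 0 in both libraries, Gm28513 at Rgs16 had 0.11 and 0 TPM, and Gm19721 at Gnai2 had 0.25 and 0.13 TPM.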

How the data were processed

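The members and the gene lists around them were chosen with earlier results of these data known, and no level is used as support for that choice. Per the file headers, each library has a gene table and a transcript table on mm10 with GENCODE M4. The tool that made them is not given in the sources used here. Expected counts, as deposited, are estimates of reads per gene or transcript, the deposited TPM and FPKM are scaled by the authors for length and depth, and the deposited isoform percent values and posterior SD (spread of a count estimate) are used as they stand. Names, types and coordinates came from GENCODE M21 (GRCm38, identical in assembly to mm10) by Ensembl identifier without version (98.0% of 43346 matched). Another 26248 entries carry a number only and name no gene; they held 0.0426% and 0.0539% of the counts, and 18255 and 22456 TPM, of replicates 1 and 2 and stayed out of library sizes and tests.

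Named were all members, up to 4 leading genes per list, RGS genes at 1 TPM or more or at 0, the 3 genes nearest to Rgs13 in level, and transcripts at 10% or more of their gene in both libraries. S1pr1, S1pr2, S1pr3, S1pr4, Gna13, Gnaq, Rgs9, the transcripts under 10% and single markers were added with their values seen. Expected counts were rounded to whole numbers and tested with scipy 1.17.1 against edgeR 4.0.16 TMM effective library sizes (adjusted p under 0.05). Log2 ratios used a pseudocount of 0.5. The test was run on simulated counts that hold counting error only. Such counts lack the wider spread seen between these libraries, so that run does not show how the test behaves on them. Alternatives were FPKM, posterior mean TPM and counts, TPM rescaled over Ensembl genes, other detection thresholds, DESeq2 1.42.0 size factors, library totals, no count filter, a pseudocount of 5, and each library left out. Depth limits the genes with few counts, and intervals and the floor of 3 counts cover counting error only, since the reads are not independent molecules. A few items are not reported here.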

Additional observations from a re-analysis of the deposited data

How the results depend on the processing

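Deposited FPKM and rescaled TPM multiply every gene of a library by 1 factor, which leaves shares and ratios within a library unchanged. Leaving out 1 library always moves a mean of 2 by less than their SD. These settings are thus no check on the shares and the ratio, while posterior mean TPM could move them. It put the Rgs13 share at 74.4%, just past the spread between libraries. The ratio of Rgs13 to Rgs19 was then 4.12 and the share of Gnai2 among Gi/o genes 70.4%, both within that spread. Rgs13 stayed the leading RGS gene. By posterior mean TPM the mean levels of Rgs13 (467 TPM), Rgs19 (113 TPM), Rgs3 (5.12 TPM) and Rgs1 (3.775 TPM) moved past the spread between libraries. Leaving out 1 library gave 74.9 to 76.7% for the Rgs13 share, 4.01 to 4.38 for the ratio and 70.1 to 71.7% for Gnai2. With 5 TPM as the threshold 4 members and 4 RGS genes were detected, and above 0 in both libraries 17 RGS genes were. Rgs9, at the threshold, made 10 RGS genes detected under posterior mean TPM, rescaled TPM, a threshold of 0.5 TPM or without replicate 1. The call of Rgs13 stood under all 4 alternatives of scaling, counts and filter, where 4474 to 4683 genes were called. The log2 ratio of Gnai2, near 0, turned to 0.020 under library totals and to 0.00046 with no count filter; it passed no threshold. Of the leading transcripts, Rgs1-204 averaged 42.4%, Rgs3-204 48.1%, Rgs10-201 62.9%, Rgs14-201 67.8% and Rgs2-201 68.8% by posterior mean isoform percent. By expected counts, Rgs2-201 averaged 43.3%, Rgs19-201 55.0% and Rgs3-204 88.6%. Each of these moved past the spread between libraries. The cause was not tested. No paired analysis was possible because the libraries form 1 group. Rgs1, Rgs10 and Rgs16 are limited by depth, with at most 77 counts a library.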
